A study of Mus musculus with 4 samples.

Results

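The genes described here are 10 members of the feedback circuitry of BMP and TGF-beta signaling in astrocyte-enriched cultures (AECs) under oxygen-glucose deprivation (OGD). They are the inhibitors of DNA binding *Id1*, *Id2* and *Id3*, the Smads *Smad3*, *Smad6* and *Smad7*, the corepressors *Ski* and *Skil*, and the ubiquitin ligases *Smurf1* and *Smurf2*. They were picked by gene name, and every non-control probe carrying one of these names was taken: 14 probes for 10 of the 29676 gene names on the array. The AECs were mixed glial cultures of the cerebral cortex of newborn ICR mice, and in both groups microglia had been removed with the CSF1R inhibitor PLX3397. Total RNA came from 2 untreated samples (AEC CTRL) and 2 samples kept for 15 h under hypoxia in medium without glucose (OGD 15 h), and each was labeled with Cy3 and hybridized to its own array. According to the methods, wells held separate cultures made from pups pooled within a litter and not shared between wells. Such cultures still hold cells of the oligodendrocyte lineage, and in bulk RNA fewer cells of a type cannot be told apart from less RNA per cell.

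In canonical signaling, TGF-beta, activin and BMP ligands bring type II and type I receptor kinases together, and the type I kinase phosphorylates receptor Smads, which enter the nucleus with Smad4. Smad3 carries the TGF-beta and activin signal, while BMP receptors act through Smad1, Smad5 and Smad9. The pathway limits itself in several ways. The inhibitory Smads, Smad6 and Smad7, block receptors and receptor Smads, Smurf1 and Smurf2 mark pathway proteins for degradation, and Ski and Skil (SnoN) hold Smad complexes in a repressive state. *Id* genes are direct BMP targets, and their products bind basic helix-loop-helix (bHLH) factors and keep them from DNA. In astrocytes, BMP signaling is known for driving differentiation and *Gfap*, and TGF-beta signaling for shaping the reactive response and extracellular matrix.

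The members did not move as a block. *Id2*, *Id3* and *Smad6* were lower after OGD by 2.63-, 3.60- and 4.19-fold. *Smurf1* was 10.6-fold higher, and 1 of the 2 probes of *Skil* was 23.0-fold higher. *Smad3*, *Smad7* and *Smurf2* were higher by 1.46- to 2.90-fold, although 3 of their 6 probes turned lower when scaled on spiked-in probes. None of the 6 was called higher on that scale. *Id1* was 1.49-fold lower with a call that several settings did not keep, and *Ski* did not pass the test. These folds are ratios of the processed signal scaled on each array's 75th percentile, so they are relative to the brighter genes of the same array.

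On each of the 4 arrays all 14 probes were marked well above background. With limma and Benjamini-Hochberg adjustment over 28258 probes, 9 member probes were higher and 4 lower at an adjusted p under 0.05, where 37.9% of all probes were higher and 27.1% lower. The higher ones include every probe of *Smad3*, *Skil* and *Smurf2*, the 3 genes with more than 1 probe, so they are not independent. By gene, *Smad3*, *Smad7*, *Skil*, *Smurf1* and *Smurf2* were higher and *Id1*, *Id2*, *Id3* and *Smad6* lower. Of all genes by brightest probe, 37.1% were higher and 27.8% lower. Probes with non-overlapping groups numbered 13 of 14 among the members, against 84.7% of all probes, so that count does not set the members apart. Past a 10-fold limit there were 2 higher and 0 lower member probes, where 0.81% and 0.524% of all probes passed. The median log2 fold change was 0.71 over the member probes and 0.18 over all probes. In the member median *Smad3*, *Skil* and *Smurf2* enter more than once, each time above 0, which raises it.

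The scale bears on every sign given here. The 75th percentile of the processed signal was 1.37 log2 units lower on the OGD arrays, whereas the spiked-in control probes differed by −0.08 on average (range −0.75 to 0.28 over 9 probes). Scaled on these probes, 91.8% of all probes were lower after OGD instead of 42.5%, the medians became −0.57 for the member probes and −1.11 for all probes, and 2 member probes were called higher and 8 lower, where 4.47% and 81.9% of all probes were. A probe's rank among all probes is nearly untouched by this choice and is therefore given beside its fold change. The 4 arrays shared 1 slide and 1 scan. With 2 samples against 2, an exact permutation test of a single value could not go below a two-sided p of 0.333, so the adjusted p-values rest on the variance shared across probes.

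The *Id* genes had lower values after OGD. *Id3* (probe A_51_P380178, chr4:135700075-135700249 in mm9, a span of 175 bases for 60 probe bases, so that it crosses a splice junction) had a processed signal of 43370 and 40545 untreated and of 4760 and 4250 after OGD. Both OGD values lay far below both untreated values. The log2 fold change was −1.85 (SE 0.086, adjusted p = 0.000872 by limma), and 5.33% of all probes had a lower one. The sequence read by this probe is shown because *Id3* had the largest decrease among the *Id* members; 1 of its reading frames is free of stop codons.
Id3 probe: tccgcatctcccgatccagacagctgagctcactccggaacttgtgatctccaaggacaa
*Id2* (probe A_52_P240542, chr12:25778904-25778963) gave 34213 and 32176 untreated against 5280 and 4480 after OGD. The groups did not overlap, and the log2 fold change was −1.40 (SE 0.085, adjusted p = 0.00123), with 9.63% of probes lower. For *Id1* (probe A_55_P2052563, chr2:152563083-152563142) the signal was 16368 and 22284 untreated and 5847 and 5624 after OGD. The software marked the first untreated spot as an outlier, so that the fit held 3 arrays and gave a log2 fold change of −0.58 (SE 0.13, adjusted p = 0.0361). With that spot kept, the change was −0.37 and the adjusted p 0.141, and the call was lost. It was also lost without that spot when OGD array 1 was left out (adjusted p = 0.0646), with no filter on dim probes (0.0713) and with the methods' plain test (0.179). Both OGD values of *Id1* were below both untreated values in either case. Scaled on the spiked-in probes, *Id1*, *Id2* and *Id3* were lower by 1.90, 2.69 and 3.14 log2 units, so the direction was the same on both scales.

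*Smad6* (probe A_55_P2129658, chr9:63800980-63801039), an inhibitory Smad that acts mainly on BMP receptors, fell from 4993 and 4972 to 454 and 465. Replicates lay close together in both groups, and the groups were far apart. The log2 fold change was −2.07 (SE 0.11, adjusted p = 0.00103), and 3.90% of all probes lay lower; it was −3.35 on the spike-in scale. *Smad7* (probe A_51_P403636, chr18:75555371-75555430), the inhibitory Smad that blocks both TGF-beta and BMP receptors, had signals of 2307 and 1724 untreated and of 2926 and 1410 after OGD. These unscaled signals overlapped, whereas the scaled values did not. The log2 fold change was 1.40 with the widest error of the set (SE 0.36, adjusted p = 0.0311), it missed the threshold with either untreated array left out (1.62 with adjusted p = 0.0735, and 1.18 with adjusted p = 0.133), and it was 0.11 on the spike-in scale (adjusted p = 0.761). *Smad3* was read by probes at bases 2112 and 5030 of its transcript. The upstream one (A_51_P441022, chr9:63497492-63497551) had 69.4 and 71.7 untreated and 67.2 and 85.5 after OGD, a log2 fold change of 1.48 (SE 0.21, adjusted p = 0.00641). Its unscaled signals were dim and overlapped between the groups, whereas its scaled values did not. The downstream one (A_55_P2101001, chr9:63494574-63494633) had 11015 and 10899 untreated and 6896 and 6082 after OGD. Its scaled values were higher after OGD by 0.61 (SE 0.075, adjusted p = 0.00455), but on the spike-in scale it was lower by −0.67 (adjusted p = 0.00243), while the upstream one stayed above 0 at 0.19 but was not called (adjusted p = 0.389). The downstream call was also lost without untreated array 2 (adjusted p = 0.055).

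**Figure D1:**
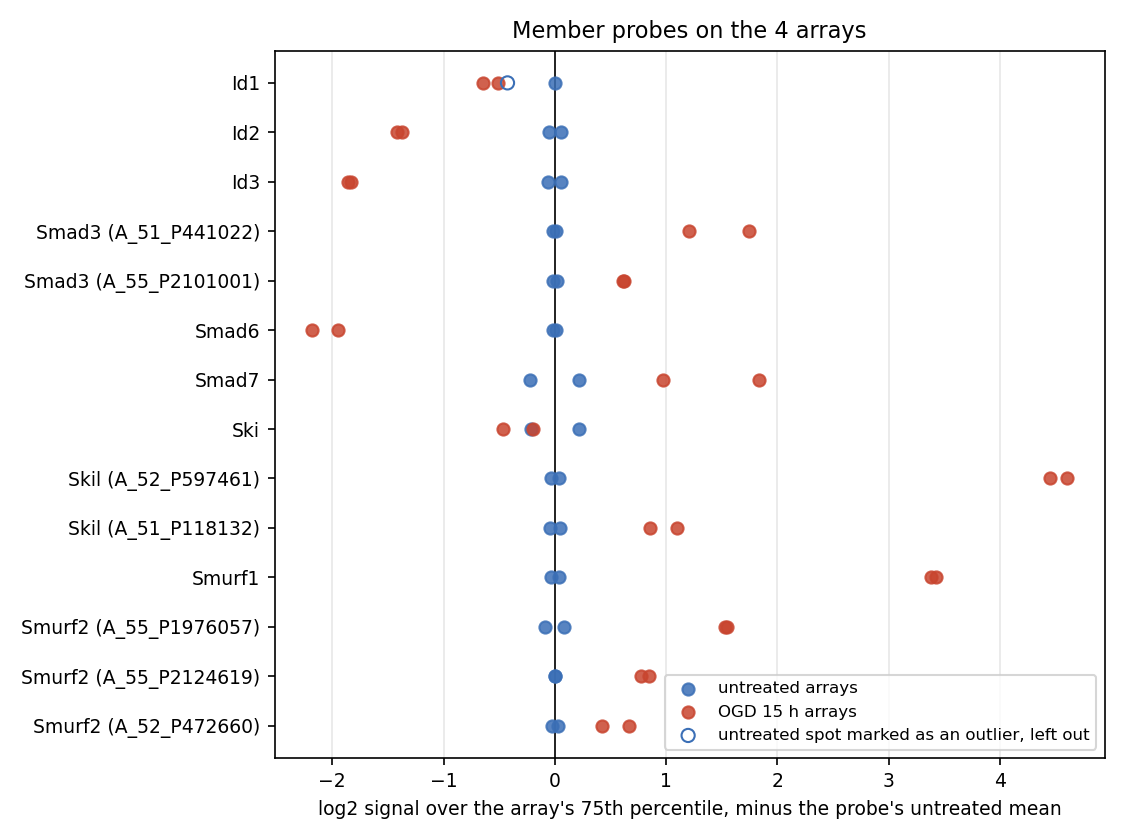
Each row is a member probe and each point an array, with blue for the 2 untreated and red for the 2 OGD arrays; the horizontal axis is the log2 signal over the array's 75th percentile minus the probe's untreated mean, and the open circle is the *Id1* spot left out as an outlier. The 2 red points of the upstream *Skil* probe and of *Smurf1* lie far to the right, those of *Smad6*, *Id3* and *Id2* to the left, and those of *Ski* reach into the untreated range.

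*Skil* and *Ski* encode related corepressors, and *Skil* is itself a TGF-beta target. The 2 probes of *Skil* lie 3956 bases apart on the transcript and disagreed in size. Their sequences are shown because the values of *Skil* turn on which of them is read. The upstream probe (A_52_P597461, base 2467, chr3:31016390-31016449) has 1 reading frame without a stop codon, whereas the downstream probe (A_51_P118132, base 6423, chr3:31021203-31021262) has 0, and only its first 30 bases are printed.
Skil upstream probe: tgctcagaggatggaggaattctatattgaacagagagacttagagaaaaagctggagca
Skil downstream probe, first bases: tgccaatgcatatagttttatgattaaaat
The upstream probe gave 141 and 150 untreated and 1454 and 1145 after OGD. Every OGD value was higher than every untreated value even before scaling. Its log2 fold change was 4.53 (SE 0.095, adjusted p = 0.000731), and 99.7% of probes lay lower. The downstream probe, printed on 10 spots of each array, averaged 2671 and 2875 untreated and 2074 and 2143 after OGD. The 10 spots ran from 2394 to 2926 and from 2601 to 3254 on the untreated arrays, and from 1939 to 2271 and from 1889 to 2506 on the OGD arrays. Scaled on the 75th percentile it was higher by 0.98 (SE 0.12, adjusted p = 0.00437), but on the spike-in scale it stood at −0.31 (adjusted p = 0.0744), whereas the upstream probe stayed higher at 3.24. *Ski* (probe A_55_P2153231, chr4:154528238-154528297) had 418 and 569 untreated and 146 and 153 after OGD. On the 75th-percentile scale its groups overlapped and it was not called (log2 fold change −0.33, SE 0.19, adjusted p = 0.207); on the spike-in scale it was lower (−1.62, adjusted p = 0.00121).

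Smurf1 and Smurf2 are HECT-type ubiquitin ligases that bind Smads, and Smad7 brings them to the receptors. *Smurf1* (probe A_51_P181227, chr5:145640319-145641546, 60 bases over a genomic span of 1228) is the other member past 10-fold. Its probe also crosses a splice junction and has an open frame.
Smurf1 probe: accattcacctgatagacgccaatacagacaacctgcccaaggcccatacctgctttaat
The signal was 484 and 516 untreated and 2151 and 1940 after OGD. All OGD values were above all untreated values before and after scaling. The log2 fold change was 3.40 (SE 0.080, adjusted p = 0.000731), 99.2% of probes lay lower, and the spike-in value was 2.12. *Smurf2* was read by probes at bases 2820, 3653 and 4561. The one at 2820 (A_55_P1976057, chr11:106683941-106684000) had 711 and 810 untreated and 905 and 800 after OGD, so its unscaled signals overlapped. The one at 3653 (A_55_P2124619, chr11:106683108-106683167) had 1489 and 1514 against 1114 and 929. The one at 4561 (A_52_P472660, chr11:106682200-106682259) had 1644 and 1730 against 1107 and 816. In scaled values all of them were higher after OGD, by 1.54 (SE 0.096, adjusted p = 0.00128), 0.81 (SE 0.078, adjusted p = 0.00266) and 0.55 (SE 0.12, adjusted p = 0.0198) in that order. The call of the probe at 4561 was lost without untreated array 1 (adjusted p = 0.113) or 2 (adjusted p = 0.0985). On the spike-in scale they stood at 0.25 (adjusted p = 0.124), −0.48 and −0.74, so the direction of *Smurf2* depended on the scale. *Smurf1* and *Skil* are listed by the study among genes it selected for large changes on these same arrays, so their size here is not independent evidence.

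**Figure D2:**
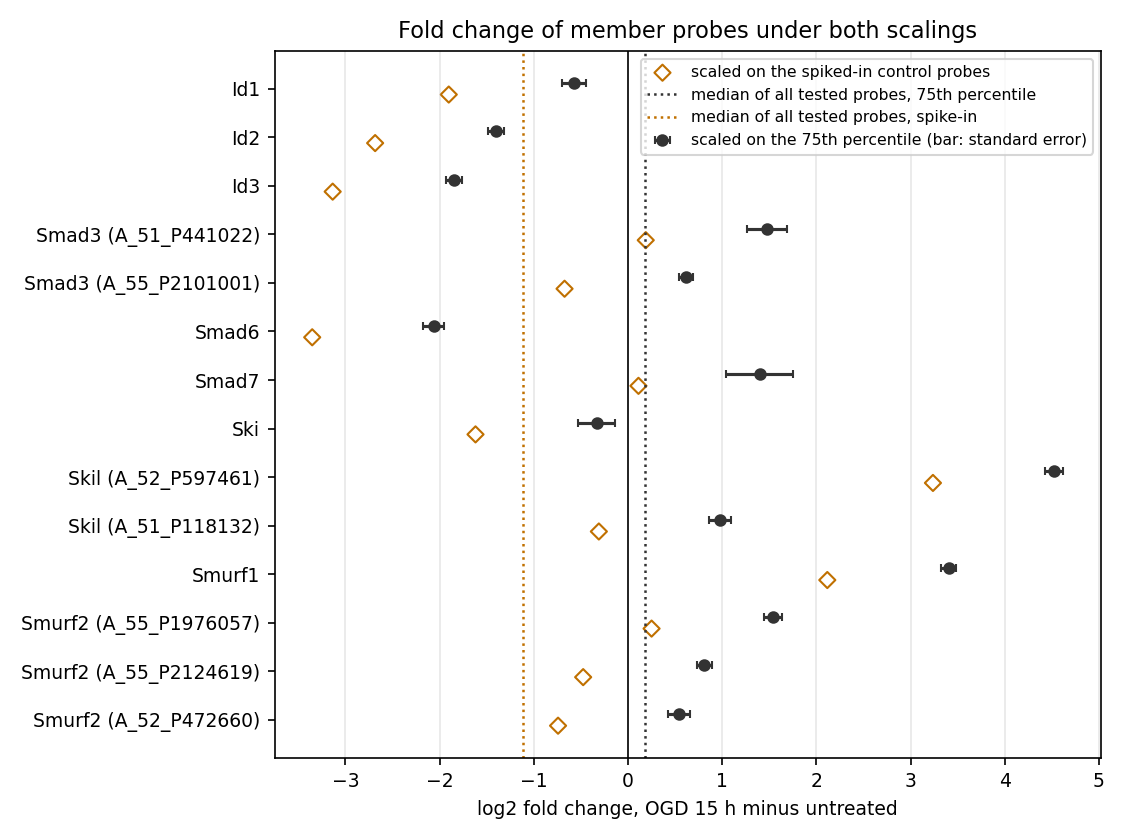
Log2 fold change of each member probe, OGD 15 h minus untreated, scaled on the 75th percentile (filled, with standard error) and on the spiked-in probes (open diamonds); dotted lines mark the median of all tested probes on each scale (0.18 and −1.11). *Smurf1* and the upstream *Skil* probe lie right of 0 on both scales, *Id1*, *Id2*, *Id3* and *Smad6* lie left of 0 on both, and probes of *Smad3*, *Skil* and *Smurf2* change sign.

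Because a ratio of 2 probes on 1 array is free of the scaling, the probes of *Skil*, *Smad3* and *Smurf2* were also compared within arrays, as log2 of the upstream over the downstream signal. For *Skil* this ratio was −4.25 and −4.26 untreated and −0.51 and −0.90 after OGD. It rose by 3.55 log2 units, or 11.7-fold (SE 0.16, adjusted p = 0.000314 by limma over 7734 pairs of probes of the same gene), and 98.8% of the pairs differed by less. The change of the ratio was 0.86 for *Smad3* (SE 0.20, adjusted p = 0.0232), and it missed the threshold without untreated array 1 (adjusted p = 0.122) or 2 (adjusted p = 0.0995). For *Smurf2* it was 0.99 between the probes at 2820 and 4561 (SE 0.14, adjusted p = 0.00452), 0.73 between those at 2820 and 3653 (SE 0.12, adjusted p = 0.00741) and 0.27 between those at 3653 and 4561 (SE 0.12, adjusted p = 0.127). The *Smurf2* change of 0.73 missed the threshold without untreated array 1 (adjusted p = 0.0764). The 3 comparisons of *Smurf2* share probes and are not independent. With a limit of 2-fold added to the adjusted p, 1 of the 5 member pairs was called against 26.7% of all pairs, and by the adjusted p alone 4 of 5 against 48.3%. The ratio shows unequal change of the probes, not which of them was unchanged.

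**Figure D3:**
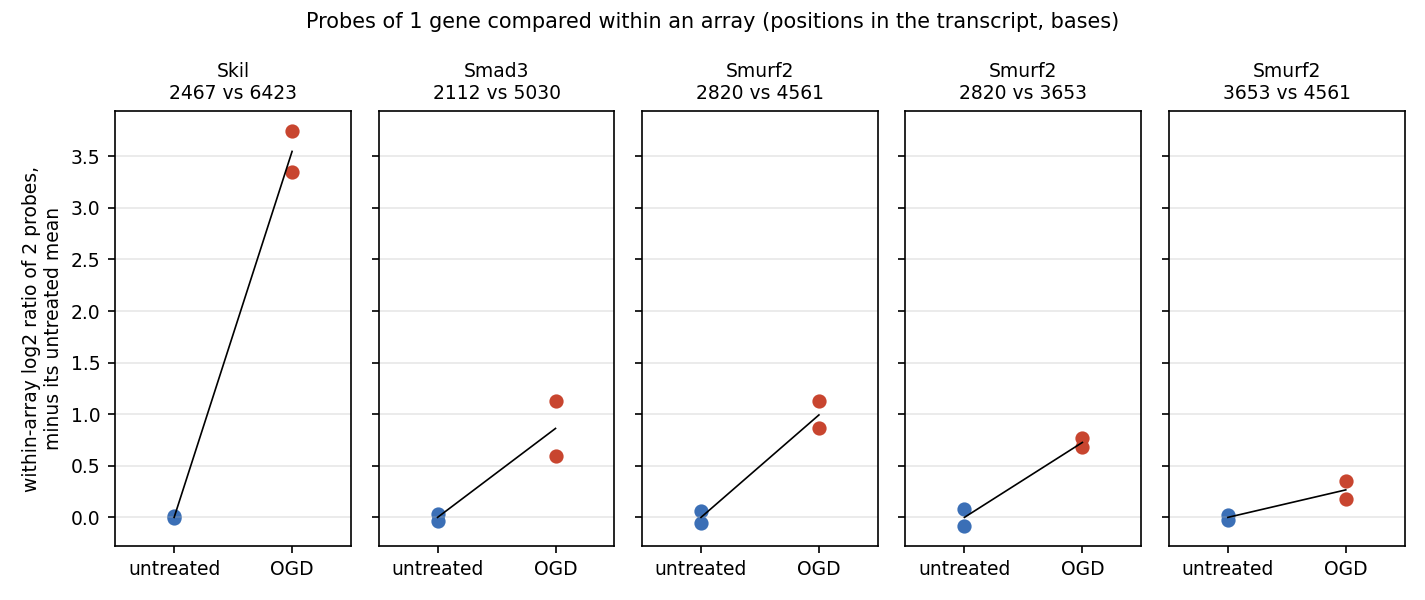
Each panel is a pair of probes of 1 gene, named by base position in the transcript; the vertical axis is the log2 ratio of the upstream to the downstream signal on 1 array minus its untreated mean, with 2 untreated (blue) and 2 OGD arrays (red) and a line between the means. The mean *Skil* ratio rose by 3.55, and the other mean ratios by 0.27 to 0.99, of which the change of 0.27 did not pass the test.

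RefSeq promoter windows (build GRCm38.p6, not the mm9 of the probes) were at hand for 7 of the 10 members: *Id2*, *Id3*, *Ski*, *Smad3*, *Smad6*, *Smurf1* and *Smurf2*. The 250 bases before the start are shown for the 3 genes that were clearly lower and for *Smurf1*. Capitals mark every match, on either strand, to GGCGCC and CAGAC, letters that Smad complexes are known to bind, and to ACGTG and GCGTG, the core letters of hypoxia response elements; matches may overlap.
Id2, chr12:25096093-25096342, minus strand: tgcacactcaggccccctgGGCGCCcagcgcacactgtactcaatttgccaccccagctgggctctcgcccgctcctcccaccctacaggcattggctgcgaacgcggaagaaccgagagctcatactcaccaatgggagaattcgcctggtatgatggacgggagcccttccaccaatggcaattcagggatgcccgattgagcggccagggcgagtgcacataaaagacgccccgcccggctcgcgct
Id3, chr4:136143572-136143821, plus strand: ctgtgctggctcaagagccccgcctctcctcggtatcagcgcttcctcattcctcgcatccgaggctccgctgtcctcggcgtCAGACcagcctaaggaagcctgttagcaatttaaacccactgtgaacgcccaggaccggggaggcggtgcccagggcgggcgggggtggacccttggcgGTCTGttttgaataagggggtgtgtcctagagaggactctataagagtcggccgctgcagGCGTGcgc
Smad6, chr9:64022060-64022309, minus strand: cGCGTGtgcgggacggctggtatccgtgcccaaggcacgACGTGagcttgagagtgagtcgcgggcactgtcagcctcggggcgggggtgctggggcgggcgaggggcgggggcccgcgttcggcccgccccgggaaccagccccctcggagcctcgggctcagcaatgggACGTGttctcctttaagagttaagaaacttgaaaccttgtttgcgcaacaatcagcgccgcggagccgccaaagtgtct
Smurf1, chr5:144965831-144966080, minus strand: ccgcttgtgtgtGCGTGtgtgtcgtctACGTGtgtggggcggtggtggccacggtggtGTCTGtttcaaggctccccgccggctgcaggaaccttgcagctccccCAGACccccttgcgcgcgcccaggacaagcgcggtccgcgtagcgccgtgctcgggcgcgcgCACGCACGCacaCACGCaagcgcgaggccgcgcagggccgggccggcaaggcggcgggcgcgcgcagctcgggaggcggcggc
Among all 32851 windows of this length, 9.59% held GGCGCC, 42.2% CAGAC, 16.6% ACGTG and 28.2% GCGTG. *Smurf1* held 1 ACGTG, 4 GCGTG and 2 CAGAC. *Smad6*, which was lower, held 2 ACGTG and 1 GCGTG, *Id3* held 2 CAGAC and 1 GCGTG, and *Id2* held 1 GGCGCC. Of the windows not printed, *Smurf2* held 2 GGCGCC, 1 CAGAC and 1 GCGTG, *Ski* 1 GGCGCC and 1 GCGTG, and *Smad3* 2 GCGTG. These windows are rich in G and C (62.8% to 87.6% against a median of 52.4%), and a match is a description of letters, not a binding site; core hypoxia letters stood before genes that rose and genes that fell.

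The rest of the pathway was read through 102 other genes in 8 lists, with the brightest probe of each gene. Of these, 93 were tested, 46 were higher, 17 lower and 30 did not pass (3 of the 93 with 1 array left out as an outlier), where 37.1% of all 21064 genes were higher and 27.8% lower. The median log2 fold change was 0.45 for the lists and 0.16 for all genes. On the spike-in scale 13 of the 93 were higher and 64 lower, where 3.84% and 83.3% of all genes were.

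Extracellular antagonists, which bind BMPs or activins outside the cell, held 10 higher and 0 lower genes of 14 tested (median 1.07), but 3 higher and 6 lower (median −0.22) on the spike-in scale. *Grem1* (gremlin 1, a BMP antagonist) went from 59.9 and 58.9 to 599 and 666, and its log2 fold change of 4.78 (SE 0.15, adjusted p = 0.000731) was larger than that of any member probe. *Nog* (noggin) was higher by 1.89 (SE 0.10, adjusted p = 0.00107). On the spike-in scale both stayed above 0, at 3.49 and 0.60.

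BMP ligands held 8 higher and 1 lower of 12 tested (median 0.82), but 3 higher and 6 lower (median −0.47) on the spike-in scale. *Bmp2* went from 90.9 and 92.2 to 257 and 316, a log2 fold change of 3.01 (SE 0.19, adjusted p = 0.00132). *Gdf6* was higher by 2.73 (SE 0.078, adjusted p = 0.000731) and *Gdf5* by 1.90 (SE 0.19, adjusted p = 0.00298). On the spike-in scale these stood at 1.72, 1.44 and 0.61. The gene counted as lower, *Bmp15*, entered the test through its untreated arrays only and was not well above background on either OGD array, so no fold is given. The ligands of the TGF-beta and activin branch held 4 higher and 3 lower of 11 (median 0.19), and 2 and 9 on the spike-in scale (median −1.10). *Inhba*, the activin A subunit, went from 1520 and 1733 to 7757 and 7400, a log2 fold change of 3.60 (SE 0.11, adjusted p = 0.000731). Of the 4 counted as higher, *Inhbe* was not well above background on either OGD array, and no fold is given for it. *Tgfb1* was higher by 1.91 (SE 0.088, adjusted p = 0.000872) and *Nodal* by 0.64 (SE 0.16, adjusted p = 0.0282; −0.65 on the spike-in scale). *Tgfb3*, *Inhbb* and *Inha*, the inhibin alpha subunit, were lower at −1.62, −1.33 and −1.17 (adjusted p = 0.00153, 0.00119 and 0.0153).

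Receptors and coreceptors held 4 higher and 6 lower of 15 (median −0.09), and 0 and 12 on the spike-in scale (median −1.38). *Tgfbr2*, the TGF-beta type II receptor, went from 9390 and 9419 to 1136 and 978, a log2 fold change of −1.78 (SE 0.075, adjusted p = 0.000801), although its dimmer probe stood at 0.63. The activin receptor *Acvr2b* was lower by −1.53 (SE 0.089, adjusted p = 0.00115). *Acvr1c*, which is among the 6 counted as lower, passed the filter through its untreated arrays only and was not well above background after OGD; as a bound without a test, it was at least 2.66-fold lower. *Rgma*, a BMP coreceptor, *Bmpr2* and *Bmpr1b* were higher by 1.25, 0.99 and 0.98 (adjusted p = 0.00165, 0.00181 and 0.00269). On the spike-in scale these fell below 0 (−0.04, −0.29 and −0.31), and a dimmer *Bmpr1b* probe was at −0.37.

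Of the 5 other Smads, 3 were higher and 1 lower, and 1 and 4 on the spike-in scale. *Smad1* was at 1.80 (SE 0.11, adjusted p = 0.00115), with its 3 probes between 0.06 and 2.14. *Smad2* was at 0.60 (adjusted p = 0.0192) and *Smad4* at 0.34 (adjusted p = 0.0273, with its 3 probes between 0.09 and 0.34), both below 0 on the spike-in scale (−0.69 and −0.95). *Smad9* went from 4312 and 4358 to 668 and 460, at −1.59 (SE 0.15, adjusted p = 0.00239). *Smad5* stood at −0.09 and did not pass (adjusted p = 0.356), while its dimmer probe was at 2.66. Among 14 intracellular regulators 7 were higher and 1 lower (median 0.39), and 1 and 12 on the spike-in scale (median −0.90). *Tgif1*, a Smad corepressor, went from 10130 and 10263 to 21847 and 20098, at 2.41 (SE 0.078, adjusted p = 0.000731; 1.12 on the spike-in scale). The deubiquitinases *Usp9x* and *Usp15* were higher at 1.01 and 0.69 (adjusted p = 0.00777 and 0.00431; below 0 on the spike-in scale, at −0.28 and −0.60, with a dimmer *Usp15* probe at −1.13), and *Usp4* was lower at −0.37 (adjusted p = 0.0235).

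Of the genes known as targets of the pathway, 9 of 19 tested were higher and 4 lower (median 0.55), and 3 and 13 on the spike-in scale (median −0.72). *Junb* and *Bhlhe40*, which other stimuli also induce, were higher at 2.79 and 2.61 (adjusted p = 0.00184 and 0.000754). *Hes1*, a repressor best known from Notch signaling, went from 609 and 537 to 31.0 and 30.9, at −2.83 (SE 0.12, adjusted p = 0.000816). *Atoh8*, a bHLH gene induced by BMP, went from 3225 and 3309 to 251 and 223, at −2.41 (SE 0.074, adjusted p = 0.000731). *Id4*, the remaining *Id* gene, went from 34927 and 35242 to 4730 and 3954, at −1.65 (SE 0.078, adjusted p = 0.000893), with its other probe at −2.32. Thus all *Id* genes on the array had lower values after OGD, that of *Id1* with the reservation above. Of the 3 bHLH partners of Id proteins, *Tcf12* was higher at 1.09 (adjusted p = 0.00163; −0.20 on the spike-in scale) and *Tcf4* lower at −0.30 (adjusted p = 0.036), with other probes at 0.49 and −1.27.

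**Figure D4:**
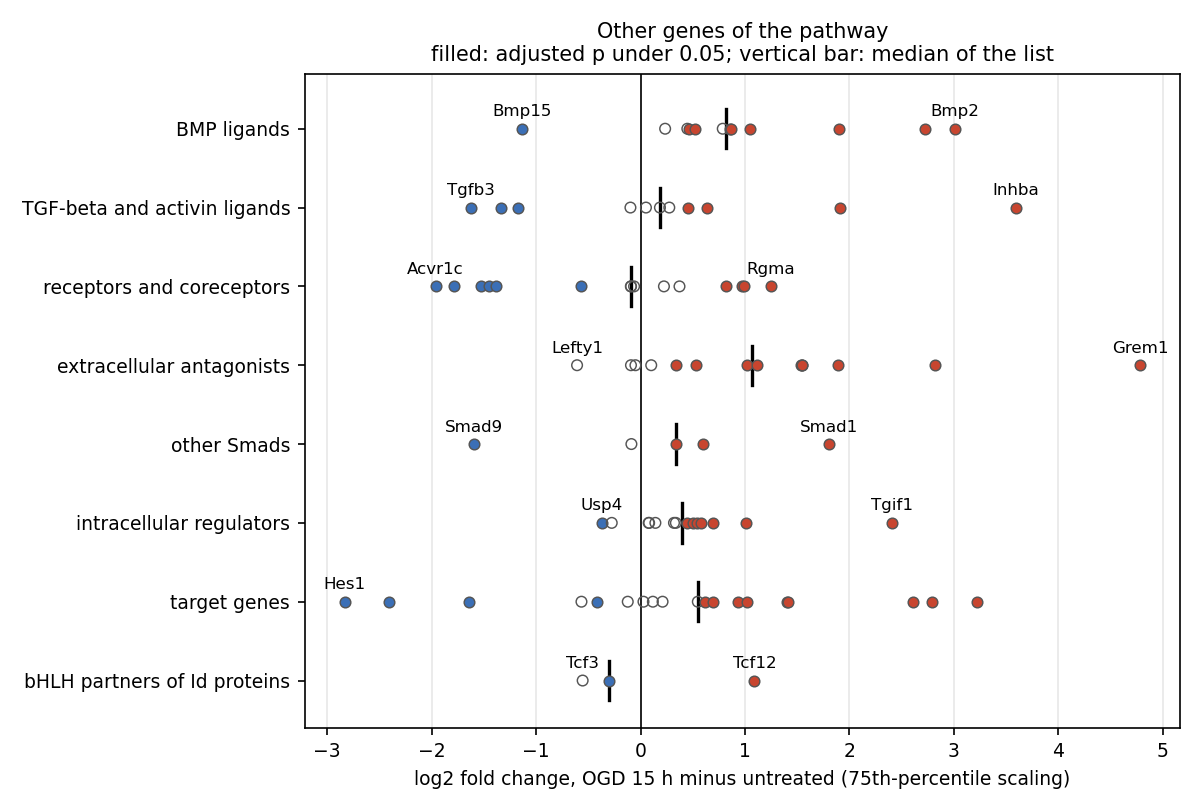
Log2 fold change of the 93 tested pathway genes, OGD 15 h minus untreated, by list; filled points have an adjusted p under 0.05 (red higher, blue lower), open points do not, vertical bars mark the list median, and genes at the ends of the lists are named, except at the upper end of the target genes. The antagonist list reaches from *Lefty1*, not called, to *Grem1* at 4.78, and holds no blue point.

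Markers of the cells in these cultures were read in the same fit. Each array detected all 10 astrocyte markers above background, and their summed scaled signal was 149 to 168 times the 75th percentile untreated and 228 to 233 times after OGD, with 6 higher and 1 lower; on the spike-in scale 0 were higher and 8 lower. The astrocyte factor *Sox9* was the exception in direction, at −1.52 (adjusted p = 0.001). Summed signals of 8 microglia markers went from between 2.04 and 2.33 to between 6.53 and 6.74, although only 3 were higher, 1 was lower and 4 did not pass (median 0.27), with *Cd68* at 3.14. Those of 8 oligodendrocyte markers went from between 10.3 and 10.5 to between 12.2 and 12.7 (3 higher, 2 lower), and those of 3 NG2 glia markers from between 0.264 and 0.289 to between 0.310 and 0.352 (1 higher, 1 lower, median −0.72). On the spike-in scale these 3 lists held 1, 0 and 0 higher and 5, 7 and 3 lower genes. The sums of 6 neuron markers overlapped between the groups. Those of 5 of the 6 meningeal fibroblast markers were at 8.36 to 10.9 after OGD and 11.1 to 13.0 untreated. Of the 6, 0 were higher and 2 lower. The sums of 5 endothelial markers were at 1.66 to 1.89 after OGD and 1.98 to 2.09 untreated (0 higher, 2 lower), with *Tek* and *Cldn5* not well above background on any array. The part of these cells in the changes of the members was not tested.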

How the data were processed

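Labels and methods gave 2 untreated and 2 OGD samples of AECs. The authors labeled RNA with Cy3, hybridized it to one-color mouse arrays and ran Agilent Feature Extraction 11.5.1.1 (per the labels). The deposited values are an intensity for each spot, background-subtracted within the array and not normalized between arrays, and the series table holds the same values (largest difference 0). Probe positions are on mm9.

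From the deposited intensity, log2 was taken with a pseudocount of 0, control and outlier spots were left out, spots of a probe were averaged, and each array's 75th percentile was subtracted. Probes well above background (at least a fraction of 0.5 of spots) on both arrays of 1 group were tested with lmFit and eBayes of limma 3.58.1 (R 4.3.3), with Benjamini-Hochberg adjustment. A plain t-test, named in the methods, was an alternative, as were other priors, scalings, filters and call rules and each array left out. Tables and figures used Python 3.11.15, pandas 2.3.3, numpy 2.4.6 and matplotlib 3.10.9. The fit was also run on simulated data in which few probes changed and no array was shifted. That setting is unlike these data and does not test the scaling. Precision rests on 2 arrays a group and on signal over background.

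Outside the members, the genes named are those past the threshold, with the same direction in all 4 pairings of arrays, that had the 3 highest and 3 lowest changes on each side of 0 in each list, and *Id4* and the other Smads; some genes that this rule covers are not reported here. The members, lists and rule were chosen with earlier results of these data known. The lists were BMP ligands, TGF-beta and activin ligands, receptors, antagonists, other Smads, regulators, targets and bHLH partners, and markers of endothelium, neurons, meningeal fibroblasts, astrocytes, NG2 glia, microglia and oligodendrocytes. *Ctgf* and *Cyr61* were read under their current symbols *Ccn2* and *Ccn1*. All 14 member probes matched RefSeq by accession under the same symbol. Samples with the same number did not deviate together (correlation of deviations −0.06), so they were not treated as pairs.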

Additional observations from a re-analysis of the deposited data

How the results depend on the processing

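*Id2*, *Id3*, *Smad6*, *Smurf1* and the upstream *Skil* probe kept their direction in every alternative run. With all 4 arrays kept, their adjusted p also stayed under 0.05. In the main fit *Id2*, *Id3* and *Smad6* did not reach the 10-fold limit. *Smurf1* passed it there (log2 fold change 3.40), but not with normexp (3.21) or spike-in scaling (2.12). *Smurf1* also fell short (3.26) when the percentile was taken from clearly detected probes alone. The upstream *Skil* probe fell short only on the spike-in scale (3.24), where *Smad6* passed the limit at −3.35. For all member probes, single values gave 201 results with the same call and direction, 17 that lost the call, 1 that gained it and 4 that reversed, all 4 under spike-in scaling: *Smad3* A_55_P2101001 (−0.67), *Skil* A_51_P118132 (−0.31) and *Smurf2* A_55_P2124619 (−0.48) and A_52_P472660 (−0.74). Spike-in scaling gave 2 higher and 8 lower member probes, 1262 and 23155 of all probes, and 13 and 64 pathway genes. A 2-fold limit left 5 higher member probes, 3938 higher and 4170 lower of all probes, and 25 higher pathway genes; a 10-fold limit left 2 higher and 0 lower member probes, 229 and 148 of all probes, and 2 and 0 pathway genes. Normexp gave 17751 higher probes overall and 2 called member pairs, and the adjusted p alone 4 member pairs. With 1 array left out, members ranged over 6 to 9 higher and 3 to 4 lower, all probes over 5869 to 11020 and 4821 to 8138, pathway genes over 31 to 47 and 10 to 19, and called member pairs over 1 to 3. The counts moved most without untreated array 1 (6727 higher and 4821 lower of all probes, 10 lower pathway genes, 7 higher member probes) or 2 (5869 and 4858, 10, 6 and 2 called pairs), and without OGD array 1 (3 called pairs). The lone array was assumed to vary like the other group. Leaving out untreated array 2 gave no value for *Id1*, whose other untreated spot was an outlier. With the replicate number as a block, 9 member probes were higher and 3 lower (*Id1* was lost, −0.51, adjusted p = 0.119). The methods' t-test called 6 higher and 3 lower member probes at an adjusted p under 0.05, and 2 and 0 with the methods' 10-fold limit added. It did not call *Id1* (adjusted p = 0.179), *Smad7* (0.149), *Smad3* A_51_P441022 (0.063) and *Smurf2* A_52_P472660 (0.0869), and of the member pairs only that of *Skil* stayed under 0.05 (0.031). Without the filter on dim probes the *Smad3* pair was at 0.0624. The causes of these changes were not tested. Weak signal limits the dim probes.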
